A study of Mus musculus with 8 samples.

Results

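The Fos and Jun genes of the AP-1 transcription factor, together with Maff, were followed in hepatocyte RNA as 8 genes chosen by symbol: Fos, Fosb, Fosl1, Fosl2, Jun, Junb, Jund and Maff. All 8 were found among the 16337 genes of the table. Of these, 7 reached at least 1 FPKM (sequenced fragments, divided by transcript length and by the fragments mapped in that library) in at least 2 libraries and were tested. Fosl1 did not, and is given by its values only. Fosb passed through its 4 knockout libraries alone, so a difference between genotypes was built into its selection, and counts over the 7 tested genes are descriptions.

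The libraries came from primary hepatocytes, the main metabolic cells of the liver, of male mice aged 4 weeks. The mice were wild-type C57BL/6 animals or Hamp-/- animals, which lack the hormone hepcidin that limits iron release into blood. They received either 12.5% carbon tetrachloride (CCl4, a solvent that injures hepatocytes) in olive oil or the oil alone, with 24 h of exposure. Cells of all 4 groups were freed from the liver by collagenase in 2 steps. Whether the extent of this digestion was equal in every library was not tested. How the Hamp-/- line was made, and on which strain background, is not stated in the labels. Each group held 2 libraries against 6 mice in the stated design. Nothing in the labels ties the 2 to different animals, and p-values therefore rest on a spread between libraries that could be technical.

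AP-1 proteins bind DNA as dimers through a basic region and a leucine zipper. Jun proteins can pair with each other or with Fos proteins, whereas Fos proteins need a Jun partner. Fos, Fosb, Jun and Junb are immediate early genes, switched on within minutes by growth factors, cytokines, stress and tissue dissociation, while Jund is made more steadily. Maff is a small MAF protein, which belongs to neither family: it has a leucine zipper but no activation domain, and pairs with itself or with factors such as NRF2. In mice, Jun is known for its part in hepatocyte survival and liver regeneration. By its title, the study concerns hepcidin, hepatocyte apoptosis and the PERK pathway in liver injury.

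As a check of the genotype labels, Hamp stood at 1136 to 1826 FPKM in the 4 wild-type libraries and at 0.54 to 2.72 FPKM in the 4 knockout libraries. The labelled cell type was borne out by 11 hepatocyte markers, none at 0 in any library, which summed to between 68685 and 96833 FPKM. Markers of other cells were also present. The 12 Kupffer cell and macrophage markers summed to 32.8 and 38.2 FPKM in wild-type oil, 195 and 205 in wild-type CCl4, 324 and 425 in knockout oil, and 546 and 681 in knockout CCl4, with none at 0 in any library. The 9 neutrophil and monocyte markers, also never at 0, summed to 7.43 to 9.83 FPKM in the oil libraries of both genotypes and to 62.1 to 76.4 in the CCl4 libraries. The 8 markers of sinusoidal endothelium summed to 6.07 and 8.42 FPKM in wild-type oil, 4.15 and 4.53 in wild-type CCl4, 41.7 and 50.1 in knockout oil, and 25.5 and 27.2 in knockout CCl4. The 8 stellate cell markers stayed between 0.58 and 4.18 FPKM, the 5 cholangiocyte markers between 6.15 and 43.0, and the 5 T and B cell markers between 0.25 and 1.58. In such bulk RNA, fewer cells of a type and less RNA per cell cannot be told apart. The SD of the log2 difference between the 2 libraries of a group was 0.14 in both wild-type groups, 0.36 in knockout oil and 0.39 in knockout CCl4, so knockout values carry more error. In the main fit, all groups shared the same estimate of a gene's spread. Standard errors and p-values therefore do not reflect this difference between genotypes. Sequencing depth is unknown.

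In wild-type mice given oil, the family was dominated by the Jun genes. Jund, which encodes the steadily made JunD, had the highest level, at 27.5 and 29.5 FPKM. Jun, at 11.99 and 10.83 FPKM, and Junb, at 11.8 and 11.9 FPKM, overlapped. Maff stood at 2.56 and 2.65 FPKM, Fos at 1.38 FPKM in both libraries, and Fosl2 at 0.66 and 0.71 FPKM. Fosb lay at 0.07 and 0.03 FPKM, and Fosl1 was listed at 0 in both. On this per-length scale, Jund exceeded 89.8% of all genes and Fos 48.5%.

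In knockout mice given oil, the order was different. Fos led by its mean with 80.04 and 84.53 FPKM, within the range of Junb at 70.57 and 84.9, and Jun at 65.13 and 70.63 overlapped Junb narrowly but not Fos. Jund followed at 49.6 and 63.9 FPKM, then Maff at 6.00 and 8.37, Fosb at 4.96 and 5.09, and Fosl2 at 2.27 and 1.93. Fosl1 was again listed at 0 in both libraries. Fos, below the middle of all genes in wild-type oil, exceeded 95.0% of them here.

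**Figure D1:**
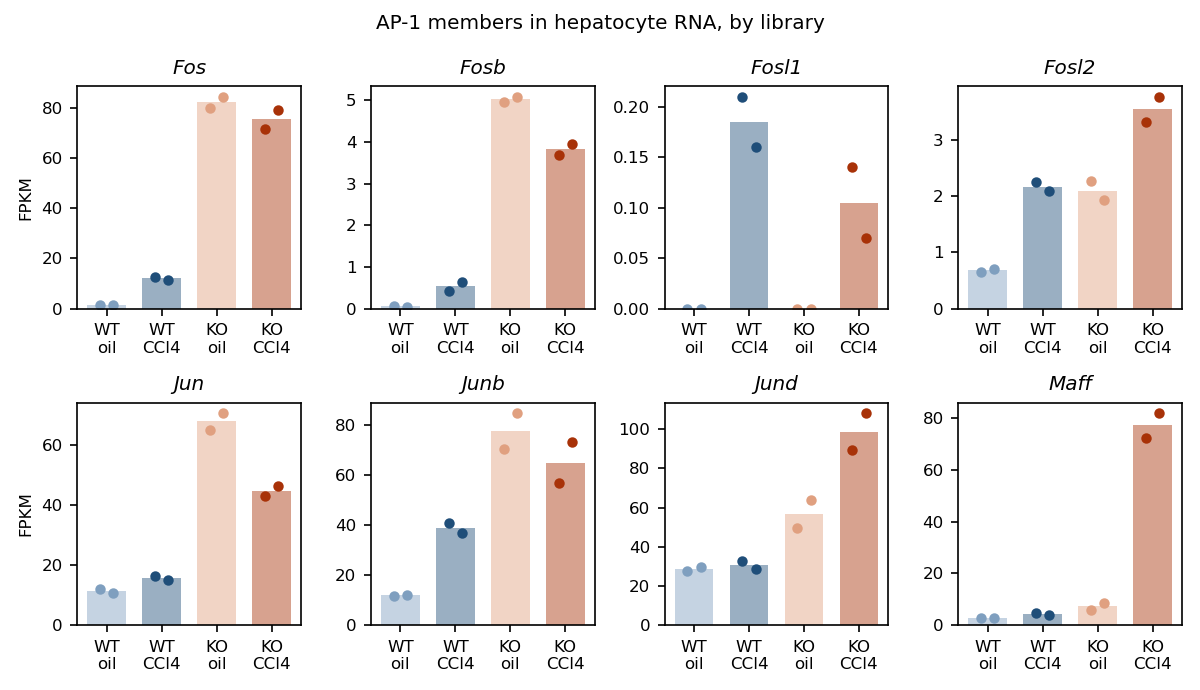
FPKM of the 8 genes in each of the 4 groups (WT, wild type; KO, Hamp knockout), with points for the 2 libraries of a group, bars for their mean and a linear vertical axis from 0 that differs between genes. Fos, Fosb, Jun and Junb stood highest in knockout oil, Jund, Fosl2 and Maff in knockout CCl4, and Maff was at 72.4 and 82.0 FPKM there against 2.56 to 8.37 elsewhere.

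The start regions of 4 members are shown so that 3 genes that stood high in knockout oil can be read beside Maff, which stood high in knockout CCl4. They are RefSeq windows of GRCm38.p6, a later build than that named for the table, from 250 bases before the transcript start to 50 after it, printed 5′ to 3′ on the strand of the gene. A window was found for 7 of the 8 members. The Fos window is chr12:85473640-85473939 on the plus strand, that of Junb is chr8:84978699-84978998 on the minus strand, and that of Jun is chr4:95052173-95052472 on the minus strand. The Maff window, chr15:79347270-79347569 on the plus strand, is the second of the 3 windows of that gene. Capitals mark the letters TGACG, the core of the cyclic AMP response element (CRE), within TGACGTCA where complete, and TGACATCA, the AP-1-like element known from the Jun promoter.
Fos: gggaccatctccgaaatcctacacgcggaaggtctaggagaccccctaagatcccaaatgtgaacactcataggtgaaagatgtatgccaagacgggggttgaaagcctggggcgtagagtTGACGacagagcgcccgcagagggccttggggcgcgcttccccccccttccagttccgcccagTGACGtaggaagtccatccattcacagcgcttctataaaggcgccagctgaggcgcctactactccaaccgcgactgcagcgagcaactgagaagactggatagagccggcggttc
Junb: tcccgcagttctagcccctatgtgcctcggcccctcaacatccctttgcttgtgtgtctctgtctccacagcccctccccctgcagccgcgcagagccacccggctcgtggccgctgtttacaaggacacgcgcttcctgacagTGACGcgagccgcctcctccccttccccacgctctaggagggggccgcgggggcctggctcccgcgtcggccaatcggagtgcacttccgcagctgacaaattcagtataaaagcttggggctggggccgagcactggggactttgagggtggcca
Jun: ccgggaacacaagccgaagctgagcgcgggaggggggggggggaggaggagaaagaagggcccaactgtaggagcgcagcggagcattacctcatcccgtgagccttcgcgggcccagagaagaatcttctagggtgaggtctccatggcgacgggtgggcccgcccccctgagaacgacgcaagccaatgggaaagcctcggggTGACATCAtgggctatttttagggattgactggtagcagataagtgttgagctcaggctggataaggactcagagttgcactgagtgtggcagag
Maff: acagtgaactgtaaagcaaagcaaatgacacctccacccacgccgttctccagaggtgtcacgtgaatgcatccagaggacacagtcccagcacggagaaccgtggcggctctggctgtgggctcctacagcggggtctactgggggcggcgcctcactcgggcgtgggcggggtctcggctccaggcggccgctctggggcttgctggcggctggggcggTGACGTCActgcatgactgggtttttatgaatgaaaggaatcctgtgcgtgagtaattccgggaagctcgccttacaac

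Letters were searched on both strands, and TGACATCA was added after the windows had been read. The core TGACG was found 2 times in the Fos window, starting at positions -129 and -66 counted from the first transcribed base as 1, once in Junb at -106, once in Fosb at -60, and on the minus strand of the third Maff window at -122. The complete CRE was found in this Maff window alone among the members' 9 windows, at -29, overlapping its core, and TGACATCA was found in Jun at -45 and in the third Maff window at -45. Over 32851 windows of 300 bases, 20.8% held TGACG, 1.79% TGACGTCA and 3.62% TGACATCA. Neither the classical AP-1 element TGAGTCA, held by 5.20% of windows, nor the CArG box of serum response factor, held by 1.63%, was matched in any window of a member. Letters more than 250 bases before the transcript start or more than 50 after it were not searched, so elements there would be missed. A match describes letters, not binding.

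The members also differ in gene structure. In the GENCODE annotation, the longest coding transcripts of Jun, Junb and Jund have 1 exon each, those of Fos, Fosb, Fosl1 and Fosl2 have 4, and that of Maff has 3. Members with 1 exon did not share 1 pattern of levels: Jun and Junb stood highest in knockout oil, and Jund in knockout CCl4.

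The genotype comparison in oil asked how hepatocytes without hepcidin differed before any CCl4. All 7 tested members were called higher in the knockout. The share of all 10082 tested genes called higher in this comparison was 22.4%, and 11.0% were called lower, by limma at a false discovery rate of 0.05. The split of all calls was 67.0% higher, or 56.4% with quantile normalization. Log2 differences here and below are of log2(FPKM + 1), which understates changes of low genes, and ± gives the standard error.

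Fos, whose protein pairs with Jun, had the largest difference of the members on the log2(FPKM + 1) scale. Its knockout libraries held 80.04 and 84.53 FPKM against 1.38 in both wild-type libraries, a 59.6-fold ratio of means and a log2 difference of 5.13 ± 0.09 (limma adjusted p = 5.61e-07). Only 1 of the 10082 tested genes rose by more. Fosb, its close relative, rose from 0.07 and 0.03 FPKM to 4.96 and 5.09 FPKM, a log2 difference of 2.52 ± 0.10 (limma adjusted p = 1.94e-05), and its ratio of means, 100.5, exceeded that of Fos but rests on wild-type values near 0. Fosl2, which encodes Fra-2, rose from 0.66 and 0.71 to 2.27 and 1.93 FPKM, a log2 difference of 0.88 ± 0.10 (limma adjusted p = 0.00115). The rise therefore ran through the tested Fos genes but differed in size.

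Among the Jun genes, Junb rose from 11.8 and 11.9 FPKM to 70.6 and 84.9 FPKM, 6.57-fold, with a log2 difference of 2.61 ± 0.14 (limma adjusted p = 5.71e-05). Jun itself rose 5.95-fold, from 11.99 and 10.83 FPKM to 65.1 and 70.6 FPKM, with a log2 difference of 2.47 ± 0.09 (limma adjusted p = 1.51e-05). Jund rose least, 1.99-fold, from 27.5 and 29.5 to 49.6 and 63.9 FPKM, with a log2 difference of 0.96 ± 0.15 (limma adjusted p = 0.00384). The small MAF gene Maff rose 2.76-fold, from 2.56 and 2.65 to 6.00 and 8.37 FPKM, with a log2 difference of 1.17 ± 0.16 (limma adjusted p = 0.00229). No call of these 7 was lost under any of the 16 alternative settings.

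Macrophage and endothelial markers moved with the members in this comparison. All 12 macrophage markers were called higher in knockout oil, and their summed FPKM was 10.6-fold that of wild-type oil, against 42.3-fold for the Fos family and 3.91-fold for the Jun family. Of the 12, 1 passed the filter on low values only through knockout libraries. The summed FPKM of all 8 endothelial markers was 6.34-fold that of wild type. Of the 7 tested, all called higher, 6 passed the filter on low values only through knockout libraries, so that count was largely set by the filter. Of the neutrophil and monocyte markers, 0 of 9 were higher and 1 was lower, with a sum 0.885-fold that of wild type. The part of other cells in the members' rise was not tested.

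**Figure D2:**
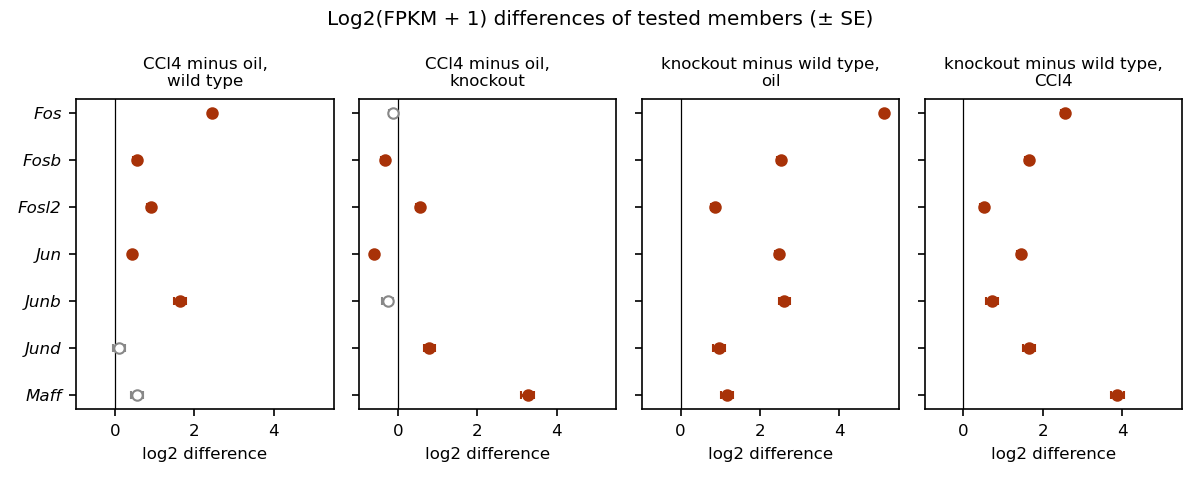
Log2 differences of the 7 tested members in 4 comparisons, with standard errors; filled points passed limma at a false discovery rate of 0.05 and open points did not. All 7 were higher in the knockout under both treatments, and the response to CCl4 was upward or near 0 in wild type and of mixed sign in the knockout.

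In wild-type hepatocytes, CCl4 raised Fos, Fosb, Fosl2, Jun and Junb, while Maff and Jund did not pass the test. Thus 5 of 7 tested members were higher and 0 lower, against 10.2% of all tested genes called higher and 5.61% lower. The split of all calls was 64.4% higher, or 51.8% with quantile normalization. The Fos family summed to 15.6 and 14.3 FPKM after CCl4 and to 2.11 and 2.12 in oil, while the Jun family summed to 89.8 and 80.9 against 51.2 and 52.2.

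Fos stood at 12.7 and 11.4 FPKM after CCl4, 8.71-fold its level in oil. Fosl2 rose from 0.66 and 0.71 to 2.26 and 2.09 FPKM, a log2 difference of 0.91 ± 0.10 (limma adjusted p = 0.00182). Fosb had 0.43 and 0.64 FPKM after CCl4 and remained a low transcript (log2 difference 0.54 ± 0.10, limma adjusted p = 0.0129). Fosl1, which encodes Fra-1, read 0.21 and 0.16 FPKM after CCl4 and was listed at 0 in oil, too low to be tested. Every Fos family gene thus read higher after CCl4 in both libraries, from very different bases.

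Junb, whose protein is a weaker activator than Jun, rose from 11.8 and 11.9 to 40.7 and 37.0 FPKM, 3.28-fold, with a log2 difference of 1.63 ± 0.14 (limma adjusted p = 0.000659). Jun rose 1.38-fold, from 11.99 and 10.83 to 16.3 and 15.1 FPKM (log2 difference 0.43 ± 0.09, limma adjusted p = 0.0220). Jund, at 32.8 and 28.8 FPKM after CCl4, overlapped its oil libraries (log2 difference 0.11 ± 0.15, limma adjusted p = 0.740). Maff read 4.76 and 3.85 FPKM after CCl4 against 2.56 and 2.65 in oil, without overlap, but missed the threshold (log2 difference 0.55 ± 0.16, limma adjusted p = 0.0648). The order of levels after CCl4 was Junb, Jund, Jun, Fos, Maff, Fosl2, Fosb and Fosl1, with no overlap between neighbours.

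The calls for Fosb and Jun in wild type were lost under several settings that changed the Jun difference to between 0.36 and 0.50 and, with a library left out, the Fosb difference to between 0.45 and 0.57. With quantile normalization the Fosb difference fell to 0.28. Fosb was lost with quantile normalization (limma adjusted p = 0.197), without replicate 2 of wild-type CCl4 (0.101) and without replicate 1 or 2 of wild-type oil (0.0835 and 0.105), and Jun with equal library medians (limma adjusted p = 0.0983), without replicate 1 or 2 of wild-type CCl4 (0.154 and 0.0886) and without replicate 1 or 2 of wild-type oil (0.0793 and 0.159). Maff passed with a pseudocount of 0.1 (limma adjusted p = 0.0470), blocking by replicate among knockout libraries (0.00119), only the 4 libraries compared (0.00243), library weights by genotype (0.00357), and without replicate 1 or 2 of knockout oil (0.0288 and 0.0296). Beside these rises, 9 of 12 macrophage markers and 7 of 9 neutrophil and monocyte markers were called higher, 5 of the latter having passed the filter only through CCl4 libraries, with sums 5.64-fold and 7.82-fold those in oil. Their part in the members' rises was not tested.

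In knockout hepatocytes, calls with CCl4 went in both directions, as they did over all tested genes. Maff, Jund and Fosl2 rose, Jun and Fosb fell, and Fos and Junb did not pass the test. That is 3 of 7 tested members higher and 2 lower, against 27.9% of all tested genes called higher and 27.4% lower. The summed FPKM of the Fos and Jun families was 268 and 315 after CCl4 and 273 and 311 in oil, a ratio of 0.999.

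Maff went from 6.00 and 8.37 FPKM in knockout oil to 72.4 and 82.0 FPKM after CCl4, 10.7-fold, with a log2 difference of 3.27 ± 0.16 (limma adjusted p = 1.07e-05). It ranked 44 of 10082 tested genes by size of rise. Jund rose 1.74-fold, from 49.6 and 63.9 to 89.4 and 108 FPKM, with a log2 difference of 0.80 ± 0.15 (limma adjusted p = 0.00407). Fosl2 rose 1.69-fold, from 2.27 and 1.93 to 3.33 and 3.78 FPKM, with a log2 difference of 0.56 ± 0.10 (limma adjusted p = 0.00353). The members that rose are the small MAF gene, the steadily made Jun gene and the Fos relative Fra-2.

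Jun changed from 65.1 and 70.6 FPKM to 42.9 and 46.3 FPKM, a log2 difference of -0.60 ± 0.09 (limma adjusted p = 0.00157). Fosb changed from 4.96 and 5.09 to 3.69 and 3.96 FPKM, a log2 difference of -0.32 ± 0.10 (limma adjusted p = 0.0310). Fos had 71.7 and 79.1 FPKM after CCl4 against 80.04 and 84.53 in oil, a log2 difference of -0.13 ± 0.09 that did not pass (limma adjusted p = 0.270) and that read 0.05 with quantile normalization. Junb, at 56.99 and 73.19 FPKM, overlapped its oil libraries at 70.6 and 84.9 (log2 difference -0.26 ± 0.14, limma adjusted p = 0.169). Fosl1 read 0.14 and 0.07 FPKM after CCl4 and was listed at 0 in oil.

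The Fosb fall was lost in 11 of 16 alternatives, among them leaving out either library of knockout oil, either library of wild-type oil or replicate 1 of knockout CCl4 (limma adjusted p from 0.0528 to 0.194 where lost). Junb passed as a fall without replicate 2 of knockout CCl4 (limma adjusted p = 0.0330) and when only knockout libraries were blocked by replicate (0.00328). In the same comparison, 4 of 12 macrophage markers were higher and 3 lower, with a sum 1.64-fold that in oil, and 8 of 9 neutrophil and monocyte markers were higher, with a sum 8.06-fold. Of those 9, 5 passed the filter on low values only through CCl4 libraries, so part of that count was set by the filter. Of all tested genes, 27.9% were higher and 27.4% lower. Of 7 tested endothelial markers, 0 were higher and 3 lower, with a sum 0.574-fold that in oil. The part of these cells in the members' changes was not tested.

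After CCl4, all 7 tested members were again higher in the knockout than in wild type, against 29.6% of all tested genes called higher and 27.5% lower, and no call was lost in the 16 alternatives. Maff had the widest gap, 72.4 and 82.0 FPKM against 4.76 and 3.85, which is 17.9-fold with a log2 difference of 3.88 ± 0.16 (limma adjusted p = 6.69e-06). Fos was 6.27-fold and Fosb 7.15-fold the wild-type level, with log2 differences of 2.55 ± 0.09 and 1.66 ± 0.10 (limma adjusted p = 3.76e-06 and 3.20e-05). Jund was 3.21-fold and Jun 2.84-fold the wild-type level (log2 differences 1.65 ± 0.15 and 1.45 ± 0.09, limma adjusted p = 0.000182 and 3.79e-05). Junb and Fosl2 had the smallest gaps, 1.67-fold and 1.63-fold (log2 differences 0.72 ± 0.14 and 0.52 ± 0.10, limma adjusted p = 0.00515 and 0.00499). In knockout CCl4, Jund led at 89.4 and 108 FPKM, Maff, Fos and Junb overlapped their neighbours below it, Jun followed, and Fosb and Fosl2 overlapped each other. Macrophage markers, 11 of 12 of which were higher, 1 having passed the filter only through knockout libraries, summed to 3.07-fold the wild-type level. The neutrophil and monocyte sum was 0.912-fold, and the endothelial sum was 6.07-fold. The part of those cells was not tested.

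The CCl4 response itself differed between genotypes for 6 of 7 tested members, more positive in the knockout for 2 and less positive for 4, against 14.3% and 19.0% of all tested genes. This is the difference between the CCl4 changes of the genotypes, tested in the same model. It was -2.58 ± 0.12 on the log2 scale for Fos (limma adjusted p = 3.36e-05) and -1.89 ± 0.20 for Junb (limma adjusted p = 0.000766), both raised by CCl4 in wild type and not called in the knockout. It was -1.03 ± 0.13 for Jun and -0.87 ± 0.14 for Fosb (limma adjusted p = 0.00149 and 0.00443), which rose in wild type and fell in the knockout. Maff went the other way with 2.72 ± 0.23 (limma adjusted p = 0.000291). Of the 12 macrophage markers, 0 had a more positive and 7 a less positive response in the knockout, and their part in the members' differences was not tested.

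Jund also leaned upward, by 0.69 ± 0.21 (limma adjusted p = 0.0468), close to the threshold. Its call was lost with equal library medians, with no filter on low values, with a pseudocount of 0.1, and without replicate 1 or 2 of wild-type CCl4, replicate 1 or 2 of wild-type oil, replicate 2 of knockout CCl4 or replicate 1 of knockout oil (limma adjusted p from 0.0504 to 0.154). Fosl2 did not pass (-0.36 ± 0.14, limma adjusted p = 0.101), but did with a pseudocount of 0.1 (0.0296) and when only knockout libraries were blocked by replicate (0.0465). Quantile normalization moved the median of all genes in this comparison by 0.10 on the log2 scale and the share of calls that were higher from 42.8% to 53.1%.

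The make-up of the families followed these changes. Of the summed Fos family FPKM in wild-type oil, Fos held 65.4% and 65.1% and Fosl2 31.3% and 33.5%. After CCl4 in wild type, Fos held 81.4% and 79.8% and Fosl2 14.5% and 14.6%, and in the 4 knockout libraries Fos held between 90.9% and 92.3%. Fosb never held more than 5.68%, nor Fosl1 more than 1.35%. The Fos family was therefore mostly Fos RNA in every library, with Fosl2 holding a visible share only in wild type.

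In the Jun family, Jund held 53.6% and 56.5% in wild-type oil, and Junb led after CCl4 in wild type with 45.4% and 45.8%. In knockout oil Junb held 38.1% and 38.7% and Jun 35.2% and 32.2%, and in knockout CCl4 Jund was again the largest with 47.2% and 47.5%. Summed Jun RNA exceeded summed Fos RNA in every library, by 24.3-fold and 24.6-fold in wild-type oil, 5.78-fold and 5.66-fold in wild-type CCl4, 2.12-fold and 2.40-fold in knockout oil, and 2.40-fold and 2.62-fold in knockout CCl4. These shares are RNA levels and say nothing of protein.

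The genes whose levels ran most like each member over the 8 libraries were named as a description, by Pearson correlation of log2(FPKM + 1) with points that share 4 groups. For Fos they were Adgre1 and Csf1r, which encode the macrophage proteins F4/80 and the CSF1 receptor, and Rgl1, with r of 0.996, 0.996 and 0.995. Adgre1 read 0.50 and 0.62 FPKM in wild-type oil, 2.52 and 2.84 in wild-type CCl4, 10.5 and 11.1 in knockout oil, and 11.2 and 10.6 in knockout CCl4. Csf1r read 1.93 and 2.12, 6.19 and 7.05, 18.3 and 22.8, and 16.8 and 20.8 FPKM in the same order. All 3 genes were lowest in wild-type oil and next in wild-type CCl4. Between knockout oil and knockout CCl4, none of Fos, Adgre1 and Csf1r was called (limma adjusted p = 0.270, 0.952 and 0.508). The part of macrophages in the Fos pattern was not tested.

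Fosb ran most like Nnt, Itga9 and Ptgs1 (r of 0.998, 0.996 and 0.996), and Jun like Ulk1, Klf4 and Chst15 (0.997, 0.997 and 0.996). Junb was closest to Bdh1, Acot3 and the immediate early gene Egr1 (r of 0.992, 0.990 and 0.984), and Fosl2 to Frrs1, Dusp6 and Hmgn1 (0.997, 0.993 and 0.992). Jund ran with Plin5, Cox7c and Clta (r of 0.994, 0.994 and 0.993), and Maff with Atp6v1e1, Gde1 and Zfp622 (0.998 each). Among members, Fosb and Jun were the most alike (r = 0.991), then Fos and Junb (0.977), and Jun and Maff the least (0.587). The nearest 3 genes thus differed between members, and those of Fos alone included macrophage markers. Correlations of the other members with those markers are not given, so these short lists say nothing of the members' cell source.

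**Figure D3:**
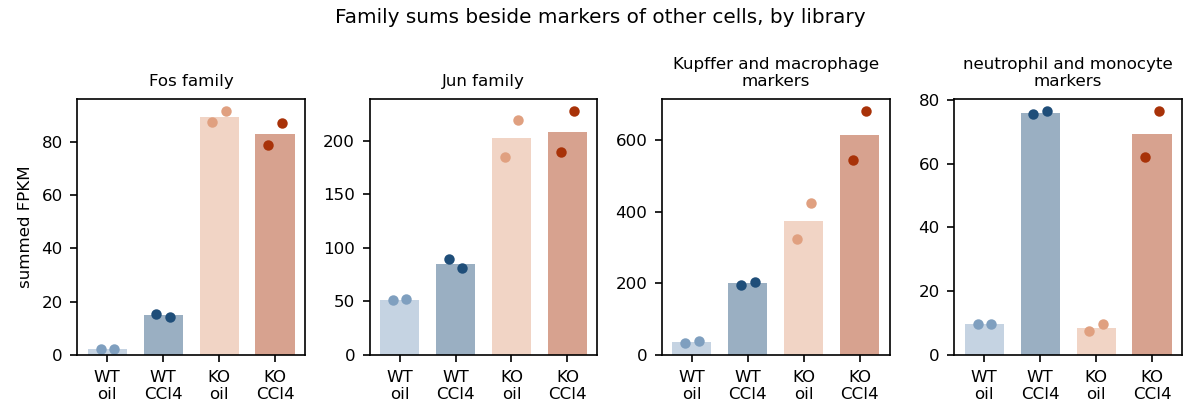
Summed FPKM of the 4 Fos family genes, the 3 Jun family genes, 12 Kupffer cell and macrophage markers and 9 neutrophil and monocyte markers, with points for libraries, bars for group means and linear axes from 0. The Fos and Jun sums and the macrophage sum were higher in the knockout under oil, while the neutrophil and monocyte sum separated CCl4 from oil in both genotypes.

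Other AP-1 partners were read from a list of 7 genes of the ATF, BATF and JDP families, of which 4 were tested. Atf3, a stress-induced factor that dimerizes with Jun, had 0.82 and 0.68 FPKM in wild-type oil, 6.85 and 7.26 in wild-type CCl4, 5.42 and 5.43 in knockout oil, and 21.2 and 24.4 in knockout CCl4. It rose with CCl4 in both genotypes (log2 differences 2.20 ± 0.10 and 1.88 ± 0.10, limma adjusted p = 6.67e-05 and 1.51e-05), unlike Fos, and the difference between those responses did not pass (-0.32 ± 0.14, limma adjusted p = 0.133). Jdp2, which encodes a repressor of AP-1, read 1.80 and 3.25 FPKM in knockout oil against 0.11 and 0.07 in wild-type oil, and passed the filter only through knockout libraries, so that a genotype difference was built into its selection. In all, 2 of 4 tested partners were higher with CCl4 in wild type, 1 in the knockout and 3 in knockout oil, and none was lower. Of all tested genes, 10.2%, 27.9% and 22.4% were called higher in the same order. Medians of the partners were 0.49, 0.26 and 1.07 against 0.04, -0.03 and 0.05 over all tested genes.

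Maff's relatives were read from 10 MAF and CNC genes, of which 7 were tested. With CCl4 in the knockout, 3 were higher and 3 lower, against 27.9% and 27.4% of all tested genes, and in wild type 0 were higher and 1 lower, against 10.2% and 5.61%. The small MAF genes Mafk and Mafg rose with Maff in the knockout, by 1.33 ± 0.11 and 0.62 ± 0.09 on the log2 scale (limma adjusted p = 9.80e-05 and 0.00123), far less than Maff's 3.27. Mafk read 3.29 and 3.63 FPKM in knockout oil and 9.32 and 11.1 after CCl4. Nfe2l2, the gene of their partner NRF2, was the third to rise (0.69 ± 0.12, limma adjusted p = 0.00260). In knockout against wild-type oil, 3 of the 7 were higher and 1, Mafg, was lower, against 22.4% and 11.0% of all tested genes. Median log2 differences for these 7 were -0.17 with CCl4 in wild type, -0.01 in the knockout and 0.28 between genotypes in oil, against 0.04, -0.03 and 0.05 over all tested genes.

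The kinases upstream of AP-1 were read from the MAP kinase list. Of 20 tested genes of the MAP kinase cascade, 1 was higher and 1 lower with CCl4 in wild type, 3 higher and 5 lower in the knockout, and 5 higher and 1 lower in knockout against wild-type oil, with medians of 0.07, -0.06 and 0.11 against 0.04, -0.03 and 0.05 over all tested genes. Over all tested genes, 10.2% were higher and 5.61% lower, 27.9% and 27.4%, and 22.4% and 11.0% in the same order. Of the 20, 1 passed the filter on low values only through knockout CCl4 libraries. It was among the genes called higher in each of these comparisons, so part of those counts was set by the filter. Mapk8, the gene of the Jun kinase JNK1, did not pass in wild type (0.07 ± 0.18, limma adjusted p = 0.868), the knockout (-0.04 ± 0.18, limma adjusted p = 0.876) or the genotype comparison in oil (-0.23 ± 0.18, limma adjusted p = 0.352). Map2k6, which activates p38, was lower after CCl4 in both genotypes, from 5.22 and 5.16 to 3.01 and 2.84 FPKM in wild type and from 4.27 and 3.74 to 0.10 and 0.15 FPKM in the knockout. Mapkapk2, a p38 substrate kinase, rose in the knockout from 21.2 and 24.8 to 52.8 and 61.6 FPKM (1.28 ± 0.11, limma adjusted p = 0.000106). RNA of a kinase says nothing of its activity.

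Of 9 tested genes of factors that bind the Fos or Jun promoters, 6 were higher and 0 lower in knockout against wild-type oil, with a median of 0.65 against 0.05 over all genes. Elk3, a partner of serum response factor that was at 0.17 FPKM in wild-type oil and passed the filter through knockout libraries, differed by 0.87 ± 0.09 (limma adjusted p = 0.000671), Mef2d, which binds the Jun promoter, by 0.86 ± 0.09 (limma adjusted p = 0.000725), and Stat3, which carries cytokine signals, by 0.65 ± 0.08 (limma adjusted p = 0.00134). Of all tested genes, 22.4% were higher and 11.0% lower in that genotype comparison. With CCl4, 1 of the 9 was higher in wild type and 4 in the knockout, and 0 were lower in either. Shares of all tested genes were 10.2% higher and 5.61% lower in wild type, and 27.9% and 27.4% in the knockout. Medians with CCl4 were 0.20 and 0.22 against 0.04 and -0.03. Stat3 was called higher in both genotypes, at 15.7 and 16.9 against 26.8 and 26.5 FPKM in wild type and 26.1 and 26.4 against 54.5 and 59.8 in the knockout.

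Genes known as AP-1 targets were read from a list of 22, of which 15 were tested. With CCl4, 10 rose and 0 fell in wild type and 12 rose and 2 fell in the knockout, with median log2 differences of 1.37 and 1.63 against 0.04 and -0.03 over all tested genes. In knockout against wild-type oil, where the Fos gap was widest, 7 were higher and 0 lower, with a median of 0.32 against 0.05. Shares of all tested genes called higher and lower were 10.2% and 5.61% with CCl4 in wild type and 27.9% and 27.4% in the knockout. Between genotypes in oil they were 22.4% and 11.0%. Of the 15, 8 passed the filter on low values only through CCl4 libraries and 3 only through knockout libraries. These routes overlap. Part of the counts with CCl4 and between genotypes was therefore set by the filter. The list mixes inflammatory, matrix and growth genes, many of them also made by other cells.

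Ccnd1, the cyclin D1 gene, had 0.74 and 0.89 FPKM in wild-type oil and 33.0 and 35.0 after CCl4, against 6.11 and 6.09 and then 11.8 and 12.4 in the knockout. Its CCl4 response was smaller in the knockout, with a log2 difference between responses of -3.39 ± 0.12 (limma adjusted p = 1.17e-05). Areg, which encodes the growth factor amphiregulin, was listed at 0 in wild-type oil, at 0.51 and 0.32 FPKM in wild-type CCl4, at 0.04 and 0.21 in knockout oil, and at 29.0 and 30.6 in knockout CCl4. It passed the filter only through the 2 knockout CCl4 libraries, so a difference in response was built into its selection. Ccnd1 was thus highest in wild-type CCl4, whereas Areg was highest in knockout CCl4, as were other genes of the list.

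Hmox1, the heme oxygenase gene, rose by 1.89 ± 0.17 in wild type and 1.96 ± 0.17 in the knockout (limma adjusted p = 0.000706 and 0.000119), and its responses were not shown to differ (0.07 ± 0.24, limma adjusted p = 0.843). Met, the hepatocyte growth factor receptor gene, and Vegfa were the 2 that fell in the knockout, with log2 differences of -2.03 ± 0.34 and -0.67 ± 0.15 (limma adjusted p = 0.00250 and 0.00785).

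**Figure D4:**
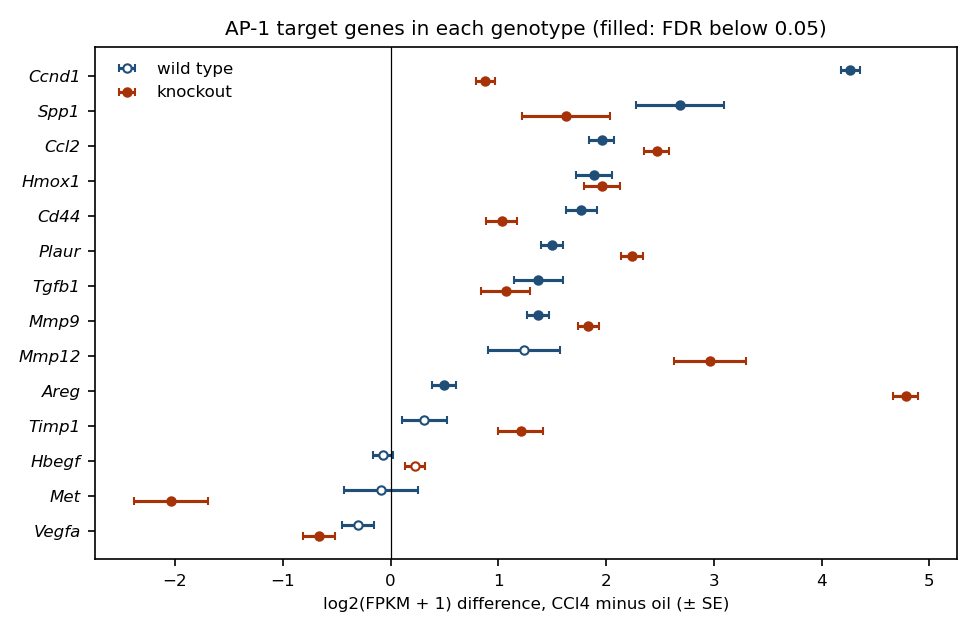
Log2(FPKM + 1) differences between CCl4 and oil of 14 of the 15 tested AP-1 target genes in wild type (blue) and knockout (red), with standard errors; filled points passed limma at a false discovery rate of 0.05. Ccnd1 differed by 4.27 in wild type and 0.88 in the knockout, Areg by 0.50 and 4.78.

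Among 26 other immediate early genes, 21 were tested. With CCl4, 17 rose and 0 fell in wild type and 12 rose and 5 fell in the knockout, and in knockout against wild-type oil 17 were higher and 0 lower, with medians of 0.84, 1.01 and 1.26 against 0.04, -0.03 and 0.05 over all tested genes. Of the 21, 3 passed the filter only through knockout libraries and 3 only through CCl4 libraries. Egr1, a zinc finger factor, read 1.5 and 1.49 FPKM in wild-type oil, 12.9 and 12.5 in wild-type CCl4, 55.1 and 55.5 in knockout oil, and 25.9 and 26.3 in knockout CCl4. Its drop in the knockout passed the test (log2 difference -1.06 ± 0.07, limma adjusted p = 3.68e-05), where that of Fos did not. Socs3, a brake on cytokine signals, fell there too (-1.51 ± 0.10, limma adjusted p = 3.68e-05). Dusp5 and Klf10, a MAP kinase phosphatase gene and a TGF-beta-induced factor gene, rose in the knockout by 2.69 ± 0.11 and 2.34 ± 0.09 (limma adjusted p = 5.69e-06 and 4.53e-06), as did Maff. Dusp5 is among the 3 genes that passed the filter only through CCl4 libraries, so a rise with CCl4 was built into its selection. Over all tested genes, 27.9% were higher and 27.4% lower with CCl4 in the knockout. The shares were 10.2% and 5.61% with CCl4 in wild type, and 22.4% and 11.0% between genotypes in oil.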

How the data were processed

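RNA was sequenced from hepatocytes in 8 libraries, 2 in each of 4 groups. The authors deposited a table of FPKM, per the file headers, with 1 column per library; the submitters' processing notes name the build mm8, while no aligner, counter, annotation or read number is given in the sources used here. FPKM is relative to the mapped fragments of a library, so a value falls where other genes take more. Of 16338 rows, 1 names no gene and was left out. Columns were assigned to libraries by name and libraries to groups by title.

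Values were taken as log2(FPKM + 1). Genes reaching 1 FPKM in 2 or more libraries, 10082 in all, entered a single limma 3.58.1 model of the 4 group means in R 4.3.3 (trended prior, 4 residual and 2.61 prior degrees of freedom), 5 contrasts, two-sided, with Benjamini-Hochberg adjustment over all tested genes and an FDR of 0.05. Named genes were the members, up to 3 genes of each of 6 lists with the smallest adjusted p per comparison, and the 3 genes most like each member; from these a selection is given, and Nfe2l2, Mapk8, Met and Vegfa were added after their values were seen. Results of 2 list genes that this rule names are not reported here; counts and medians of their lists include them. The members and lists were chosen with earlier results of these data known. The fit was tested on simulated data. Tried as alternatives were quantile normalization, equal library medians, no filter, a pseudocount of 0.1, 2 replicate blocks, only the 4 libraries compared, library weights by genotype, and leaving out each of the 8 libraries. Promoter letters were searched in RefSeq windows of GRCm38.p6, exons were counted in GENCODE M21, and plots were made in Python 3.11.15 with matplotlib 3.10.9.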

Additional observations from a re-analysis of the deposited data

Results flagged for a closer look

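The CCl4 response differed between genotypes, by the test of that difference in limma, for 6 of 7 tested members. Of all tested genes, 14.3% had a more positive and 19.0% a less positive response in the knockout. On the log2(FPKM + 1) scale, the knockout response minus the wild-type response was -2.58 for Fos, -1.89 for Junb, -1.03 for Jun, -0.87 for Fosb, 0.69 for Jund and 2.72 for Maff. The Jund call was close to the threshold and was lost under several settings. Fos stood at 80.04 and 84.53 FPKM in knockout oil and at 71.7 and 79.1 FPKM in knockout CCl4, whereas Maff stood at 6.00 and 8.37 FPKM and then at 72.4 and 82.0 FPKM. Groups of 2 libraries are too small for a check of single libraries that stand apart.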

How the results depend on the processing

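Of 553 values of members under the alternatives, 513 kept their direction and side of the threshold, 29 lost the call, 10 gained it and 1 changed sign. That was Fos with CCl4 in the knockout, at -0.13 and, with quantile normalization, 0.0457 (limma adjusted p = 0.270 and 0.644). Leaving out single libraries moved the members called with CCl4 in wild type from 5 to between 3 and 6, with 3 without replicate 2 of wild-type CCl4 or either library of wild-type oil. With Maff counted in, the ratio of summed Fos and Jun family FPKM went from 0.999 to 1.23 for CCl4 in the knockout and from 2.91 to 3.53 for genotype after CCl4. With a replicate block over all libraries, the members called stayed at 5, 5, 7, 7 and 6 over the 5 comparisons, and with the block in the knockout alone they were 6, 6, 7, 7 and 7. The replicate numbers are not shown to pair the samples. Differences between replicates correlated at r = 0.803 between the knockout groups, at -0.04 between the wild-type groups, and at -0.253 to 0.219 across genotypes. The main fit took no account of such a shared difference between replicates in the knockout.

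Counts over lists moved further. With CCl4 in wild type, the ranges were 1 to 2 for partners higher (2 as given), 0 to 1 higher and 0 to 3 lower for MAF and CNC genes (0 and 1), 0 to 3 higher and 0 to 2 lower for kinases (1 and 1), 1 to 4 for promoter-binding factors higher (1), 0 to 1 for targets lower (0) and 10 to 19 for immediate early genes higher (17). With CCl4 in the knockout they were 1 to 2 partners higher (1), 1 to 3 MAF and CNC genes lower (3), 3 to 5 kinases higher and 4 to 8 lower (3 and 5), 2 to 4 promoter-binding factors higher (4), 1 to 2 targets lower (2) and 4 to 8 immediate early genes lower (5). Between genotypes in oil they were 0 to 1 MAF and CNC genes lower (1), 1 to 8 kinases higher and 0 to 1 lower (5 and 1), 0 to 1 promoter-binding factors lower (0), 4 to 8 targets higher and 0 to 2 lower (7 and 0), and 0 to 2 immediate early genes lower (0). The causes were not tested. Depth is unknown, so precision at low FPKM cannot be stated.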
